A study of Homo sapiens with 4 samples.

Results

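The genes described here encode the enzymes of the tricarboxylic acid cycle, the enzymes that feed it or draw from it, and the mitochondrial carriers that pass its intermediates across the inner membrane. They were given as a list of 32 genes, and a probe set counted as a member when its only gene symbol in the platform annotation was on the list. This found 56 probe sets for 29 of the 32 genes, among 54675 probe sets for 19775 genes on the array. FH, GLS2 and GPT2 were not matched to a probe set with a single symbol and are not analysed here.

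RNA came from the human lung adenocarcinoma lines CL1-5 and CL1-0, of which CL1-5 is known as an invasive subline selected from CL1-0. CL1-0 cells had received an AK4 vector or a control vector, and CL1-5 cells an AK4 shRNA or a non-silencing shRNA. All cells were stably transduced and selected with puromycin. AK4 is an adenylate kinase of the mitochondrial matrix. The design sets AK4 overexpression in CL1-0 and AK4 silencing in CL1-5 against their own vector controls. There was 1 array for each of the 4 groups. No replicate error or p-value can therefore be given, the number of arrays limits the precision throughout, and culture, hybridisation and condition cannot be told apart.

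In the cycle, acetyl-CoA condenses with oxaloacetate to citrate, which is oxidised stepwise back to oxaloacetate while carbon dioxide is released and electrons are passed to the respiratory chain. Anaplerosis is the refilling of the cycle from pyruvate, glutamate or aspartate, and cataplerosis is the withdrawal of its intermediates for synthesis. Several steps have a mitochondrial enzyme and a cytosolic relative, and the carriers join both compartments, as in the malate-aspartate shuttle that moves reducing equivalents into mitochondria.

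Signals are given after scaling each array to a common trimmed mean, and a floor was set at 6.93, which is 2.79 in log2 units. A gene was read from its brightest probe set, and a ratio of at least 2-fold was counted as higher or lower. Of the 29 genes, 28 lay above the floor on all 4 arrays. The exception was ME1, which was at the floor on both CL1-0 arrays.

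The array label was checked on AK4 itself. Its 4 probe sets were lower with AK4 shRNA than with non-silencing shRNA in CL1-5, with log2 ratios from -1.25 to -0.88, but on the array labelled AK4 vector all 4 read slightly below the control vector, with log2 ratios from -0.25 to -0.05. Directions drawn from that array therefore rest on its label. The lines were labelled as type II alveolar cells. Of 7 alveolar type II marker genes with a probe set, 5 to 7 lay above the floor on an array, with summed signals of 130 and 134 in CL1-5 and 343 and 398 in CL1-0. Much of that gap came from LAMP3, at 160 and 210 in CL1-0 and at or below the floor in CL1-5. NAPSA ran the other way, with 19.2 and 19.6 in CL1-5 against 8.99 and 9.50 in CL1-0. SFTPD, a surfactant protein, was at or below the floor on 3 of the 4 arrays. Of 6 epithelial markers, 4 lay above the floor on each CL1-5 array, against 5 with AK4 vector and 3 with control vector in CL1-0. Their summed signals were 1783 and 2027 in CL1-5, mostly from KRT18, against 52.5 and 51.5 in CL1-0, while EPCAM and CDH1 were at or below the floor on both CL1-5 arrays and on the CL1-0 control array. Of 5 leukocyte markers 2 or 3 lay above the floor on an array, with summed signals from 33.6 to 44.7 and PTPRC at or below the floor throughout. Of 3 endothelial markers 1 or 2 did, with CDH5 at or below the floor throughout. PECAM1 read 54.0 and 45.1 in CL1-5. In CL1-0 it read 7.12 with control vector and was at or below the floor with AK4 vector. Of 5 fibroblast markers, 4 lay above the floor on each CL1-5 array and 2 on each CL1-0 array, with summed signals from 84.0 to 125.

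The promoters of 4 genes with large differences between the lines are shown, because ME1 and IDH1 are known targets of the antioxidant factor NRF2, PCK2 is a known target of the stress factor ATF4, and GOT1 was the member with a 2-fold difference in a comparison within a line. The sequences are the bases just before the transcription start in RefSeq, build GRCh38.p14, written 5′ to 3′ on the gene's strand, with motif matches in capitals. For PCK2 only the bases before its outermost start are printed.
ME1 (chr6:83431052-83431301, minus strand): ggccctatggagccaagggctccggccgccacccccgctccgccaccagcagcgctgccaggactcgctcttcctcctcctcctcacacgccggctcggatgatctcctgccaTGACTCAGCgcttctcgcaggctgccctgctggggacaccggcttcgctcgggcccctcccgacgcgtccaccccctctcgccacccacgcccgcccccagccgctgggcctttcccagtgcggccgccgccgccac
IDH1 (chr2:208255072-208255321, minus strand): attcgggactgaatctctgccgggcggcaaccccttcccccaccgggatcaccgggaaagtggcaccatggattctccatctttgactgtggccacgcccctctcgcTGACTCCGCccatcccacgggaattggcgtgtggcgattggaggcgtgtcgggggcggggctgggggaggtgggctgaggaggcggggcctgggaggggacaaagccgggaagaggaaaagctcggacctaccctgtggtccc
PCK2 (chr14:24094061-24094170, plus strand): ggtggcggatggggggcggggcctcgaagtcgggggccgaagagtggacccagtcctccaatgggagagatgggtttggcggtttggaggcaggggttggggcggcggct
GOT1 (chr10:99430625-99430874, minus strand): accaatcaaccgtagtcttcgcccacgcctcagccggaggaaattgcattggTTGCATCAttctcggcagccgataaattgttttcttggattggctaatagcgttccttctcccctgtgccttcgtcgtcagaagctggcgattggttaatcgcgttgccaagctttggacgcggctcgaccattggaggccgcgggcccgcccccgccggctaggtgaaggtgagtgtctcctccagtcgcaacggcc

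Of the listed genes, 30 had a RefSeq promoter, and the 250 bases before each start were searched on both strands for 3 motifs. The antioxidant response element core, TGACNNNGC, was found in 7 of the 30 genes (GOT2, IDH1, IDH3G, ME1, OGDHL, SLC25A1 and SLC25A13) with 1 matching window each. Counted by window, since a gene can have several starts, 18.4% of 38 windows of the 30 genes held it, against 10.9% of 35114 promoters of that length. In ME1 it begins 137 bases before the start and in IDH1 143 bases before it. The amino acid response element core, TGATGNAA, was found in GOT1, where it lies on the opposite strand from 198 to 191 bases before the start, and in SLC25A11. It was in 5.26% of the windows of the 30 genes and in 3.14% of all promoters. PCK2 held none of the 3 motifs in its window. The E-box CACGTG was found in ME3, OGDHL and SLC25A13, in 10.5% of the windows of the 30 genes and in 6.35% of all promoters. A match describes these letters only, and binding was not measured.

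**Figure D1:**
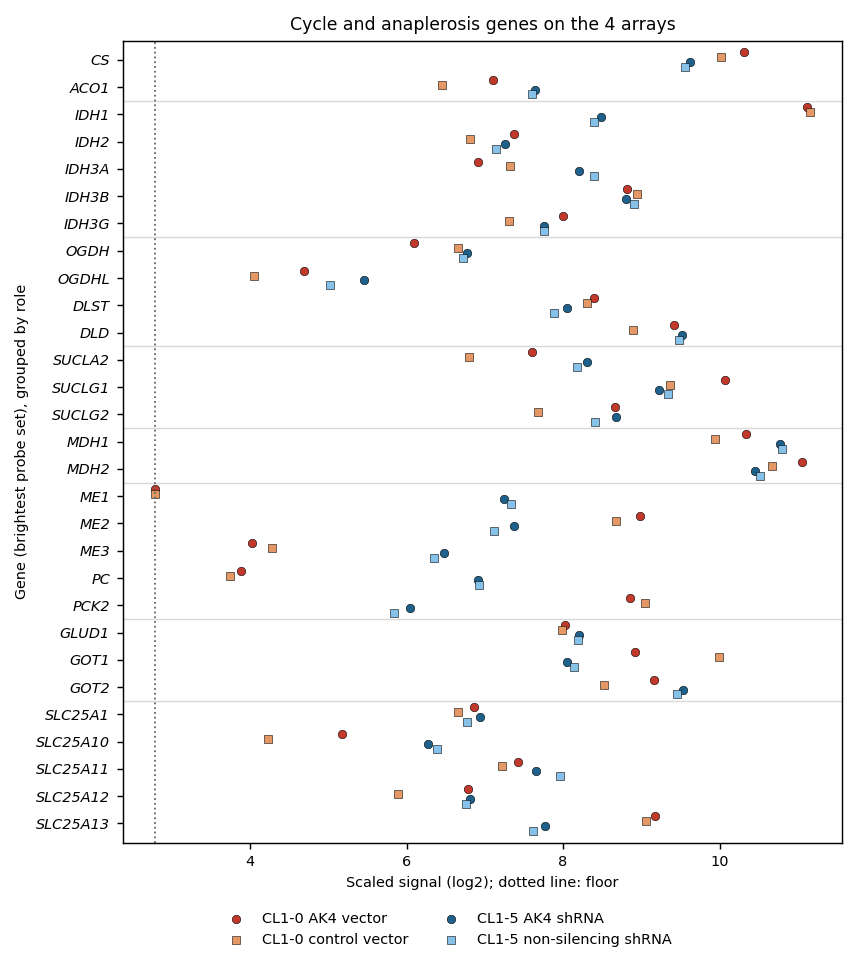
Scaled signal on the log2 scale of the brightest probe set of each of the 29 genes (rows, grouped by role) on the 4 arrays, with the floor dotted. ME1 sits at the floor on both CL1-0 arrays and the CL1-5 arrays of PC, ME3 and SLC25A10 lie to the right of both CL1-0 arrays, while those of PCK2, IDH1, ME2 and SLC25A13 lie to the left.

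Setting the CL1-5 control array over the CL1-0 control array describes the lines in which AK4 was altered, and this is where the cycle and anaplerosis genes differed most. ME1 and pyruvate carboxylase (PC) were far brighter in CL1-5, while mitochondrial PEP carboxykinase (PCK2) and cytosolic isocitrate dehydrogenase (IDH1) were far dimmer. On the CL1-5 non-silencing array against the CL1-0 control array, 7 of 29 genes were higher by 2-fold or more and 5 were lower by as much. Among all 15970 genes measured, the corresponding shares were 17.1% higher and 14.2% lower. The median log2 ratio of the 29 genes was 0.45, against 0.13 for all genes. When probe sets that can match several transcripts (_x_at and _s_at) were left out, the median was 0.15 and its excess over all genes 0.00. The lower quartile of the 29 was -0.15 and the upper quartile 0.97, against -0.52 and 0.73 for all genes.

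The same lines could be set against each other in a second pair of arrays that shares none with the first, CL1-5 with AK4 shRNA and CL1-0 with AK4 vector. There 5 of the 29 genes were higher by 2-fold or more and 4 lower, where 14.7% of all genes were higher and 14.8% lower. The median of the 29 was 0.08, against 0.07 for all genes. Both CL1-5 arrays lay at least 2-fold above both CL1-0 arrays for 4 genes (ME1, ME3, PC and SLC25A10), and at least 2-fold below them for 4 others (IDH1, ME2, PCK2 and SLC25A13). Among 16261 genes above the floor on at least 1 array, the shares were 10.7% and 9.6%. By any distance, 14 of the 29 were higher and 9 lower in both CL1-5 arrays, against 43.2% and 34% of all genes. The count of members lower in both CL1-5 arrays, 4 of 29, and the count higher, also 4, are each close to these background shares, so the counts say nothing particular about the list.

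**Figure D2:**
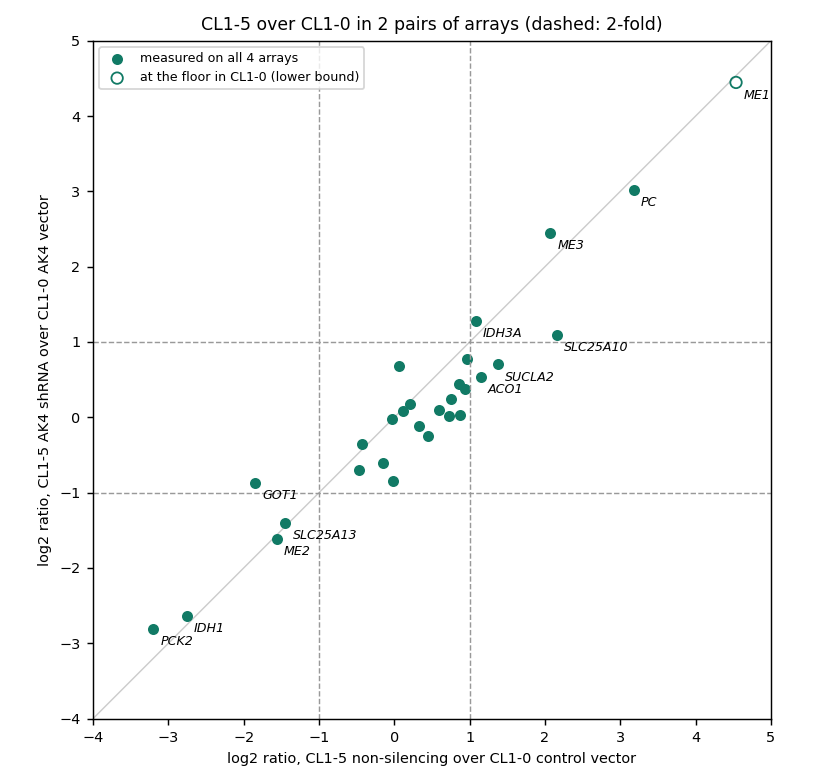
Log2 ratios of the 29 genes in the 2 pairs of arrays that set CL1-5 over CL1-0, with 2-fold dashed and the line of equal ratios in grey. ME1 (open circle, a lower bound), PC and ME3 lie in the upper right, PCK2 and IDH1 in the lower left, and GOT1 and SLC25A10 have smaller ratios on the vertical axis.

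The pyruvate node held the largest differences in each direction. Malic enzymes turn malate into pyruvate, making NADPH in the case of ME1 in the cytosol and ME3 in mitochondria, whereas mitochondrial ME2 prefers NAD. ME1 had signals of 151 with AK4 shRNA and 161 with non-silencing shRNA in CL1-5, against 5.12 with AK4 vector and 4.47 with control vector in CL1-0. Since both CL1-0 values lie under the floor, ME1 was at least 23.2-fold higher in the control pair, a bound that holds for this probe set and scaling. Its other probe sets gave log2 ratios of at least 2.73 for the brighter and at least 0.15 for the dimmer, which read at most 9.08 on any array.

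ME3 had signals of 89.5 and 81.6 in CL1-5 with AK4 shRNA and non-silencing shRNA, against 16.4 and 19.5 in CL1-0 with AK4 vector and control vector. Its log2 ratio was 2.07 in the control pair and 2.45 in the other pair. ME2 ran the opposite way at its brightest probe set, with signals of 165 and 139 in CL1-5 against 505 and 409 in CL1-0 in the same order of vectors. That is a log2 ratio of -1.56 in the control pair. The other ME2 probe sets were close to equal in the lines, at -0.25 and -0.14, and averaging its probe sets put ME2 at -0.65. The log2 ratio of ME1 exceeded that of ME2 by at least 6.10 in the control pair and at least 6.06 in the other.

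PC carboxylates pyruvate to oxaloacetate and is the classic anaplerotic enzyme. Its single probe set read 120 with AK4 shRNA and 122 with non-silencing shRNA in CL1-5, against 14.8 with AK4 vector and 13.5 with control vector in CL1-0. The arrays of a line lay close together and the lines were far apart, with PC 9.04-fold higher in the control pair and 8.13-fold higher in the other. Ratios as high or higher were found in 1.37% of all genes in the control pair.

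PCK2 converts oxaloacetate to phosphoenolpyruvate in mitochondria, and so withdraws what PC supplies. It was the lowest member, with signals of 66.2 and 57.4 in CL1-5 with AK4 shRNA and non-silencing shRNA, against 464 and 528 in CL1-0 with AK4 vector and control vector. PCK2 was 9.21-fold lower in the control pair and 7.01-fold lower in the other. Ratios as low or lower were found in 1.08% of all genes in the control pair. Of 12 integrated stress response targets, the ATF4-driven group to which PCK2 is known to belong, 10 were lower by 2-fold or more and 0 higher in the control pair, with a median log2 ratio of -2.67. The list does not hold PCK2, and any link between its value and theirs was not tested.

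The isocitrate dehydrogenases oxidise isocitrate to oxoglutarate. IDH1 works in the cytosol with NADP, IDH2 in mitochondria with NADP, and IDH3A, IDH3B and IDH3G are subunits of the NAD-dependent cycle enzyme. IDH1 had signals of 358 and 336 in CL1-5 with AK4 shRNA and non-silencing shRNA, against 2226 and 2271 in CL1-0 with AK4 vector and control vector. It was 6.76-fold lower in the control pair, and its other probe sets were lower as well, at -1.66 for the second and at most -1.49 for the third, which was under the floor in CL1-5. IDH2 was at 0.33, with 1.46 at a dimmer second probe set, and IDH3B at -0.04 in the same comparison. IDH3A, the catalytic subunit, was at 1.08 with 293 and 337 in CL1-5 against 120 and 160 in CL1-0, and a second probe set gave 1.11. Without _x_at and _s_at probe sets IDH3A was read from a dim probe set and was at least 0.23. Its partner IDH3G was at 0.45, with 216 and 217 in CL1-5 against 256 and 159 in CL1-0. IDH3B had 445 and 481 in CL1-5 against 452 and 493 in CL1-0, with no separation of the lines.

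Of 8 NRF2 targets with a probe set, a group to which both ME1 and IDH1 are known to belong, 4 were at least 2-fold lower in the control pair and none had a ratio above 0, with a median of -0.99. The list holds neither gene. ME1 and IDH1, with the same motif core shown in capitals above, lay on opposite sides of that median. Any link between the motif, the NRF2 targets and the values of ME1 and IDH1 was not tested.

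Among the aminotransferases, which exchange amino groups between aspartate and glutamate, the cytosolic and mitochondrial enzymes ran apart. Cytosolic GOT1 had signals of 264 and 283 in CL1-5 with AK4 shRNA and non-silencing shRNA, against 482 and 1021 in CL1-0 with AK4 vector and control vector. It was 3.61-fold lower in the control pair and 1.83-fold lower in the other, so its size depends on which CL1-0 array is used. Mitochondrial GOT2 was higher by 0.93 in the control pair and by 0.38 in the other. GLUD1, which turns glutamate into oxoglutarate, was at 0.21, and its other probe set was at 0.94. GLUD2 is a near-identical copy, so the GLUD1 values are uncertain, and cross-hybridisation was not tested. The brighter GLUD1 probe set read 296 and 293 in CL1-5 against 261 and 254 in CL1-0.

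The carriers were divided too. SLC25A10, the dicarboxylate carrier for malate and succinate, had signals of 77.2 and 83.9 in CL1-5 with AK4 shRNA and non-silencing shRNA, against 36.1 and 18.8 in CL1-0 with AK4 vector and control vector. Its log2 ratio was 2.16 in the control pair and 1.10 in the other. SLC25A12 and SLC25A13 are the aspartate-glutamate carriers of the malate-aspartate shuttle. SLC25A13 was lower in CL1-5, with 218 and 195 against 577 and 534, whereas SLC25A12 was at 0.87 in the control pair and 0.03 in the other, with 1.37 and 0.88 at its second probe set. The SLC25A13 difference rests on 1 probe set, since its other probe sets were at 0.01 and 0.00, and averaging them put it at -0.48. The citrate carrier SLC25A1 was at 0.12 and the oxoglutarate carrier SLC25A11 at 0.75, with a second SLC25A11 probe set at -0.14. The probe sets of SLC25A11 read 202 and 250 in CL1-5 against 171 and 149 in CL1-0, and 97.0 and 113 in CL1-5 against 158 and 124 in CL1-0.

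At their brightest probe sets, the remaining members differed less between the lines than ME1, PC, PCK2 and IDH1 did. SUCLA2, the ATP-forming subunit of succinate-CoA ligase, had signals of 316 and 290 in CL1-5 with AK4 shRNA and non-silencing shRNA, against 194 and 112 in CL1-0 with AK4 vector and control vector. Its log2 ratio was 1.38 in the control pair and 0.70 in the other. ACO1, cytosolic aconitase and iron regulatory protein, had 199 and 194 in CL1-5 against 138 and 87.6 in CL1-0, with log2 ratios of 1.15 and 0.53. A dim second ACO1 probe set, which read at most 9.24, was at -0.34 in the other pair and under the floor on both control arrays. At the brightest probe sets of SUCLA2 and ACO1, both CL1-5 arrays lay above both CL1-0 arrays. The GTP-forming subunit SUCLG2 was at 0.73 and the shared subunit SUCLG1 at -0.02. MDH2 had 1402 and 1461 in CL1-5 against 2128 and 1623 in CL1-0 at its bright probe set, but 76.4 and 88.6 against 49.9 and 38.9 at its dim one, so its probe sets ran opposite ways. Citrate synthase (CS) was at -0.47, the malate dehydrogenases MDH1 of the cytosol and MDH2 of mitochondria at 0.86 and -0.15. In the oxoglutarate dehydrogenase complex the core subunit DLST was at -0.43, the shared subunit DLD at 0.59 (731 and 715 in CL1-5 against 683 and 476 in CL1-0) with 1.37 at a dimmer probe set, the first subunit OGDH at 0.06 (109 and 105 in CL1-5 against 68.2 and 101 in CL1-0) and its relative OGDHL at 0.97. One OGDH probe set stood apart from the other probe sets of its gene, with 58.7 and 69.6 in CL1-5 against 4.08 and 3.34 in CL1-0, a ratio of at least 3.33 on the log2 scale.

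The lines also differed in array measures that move with these ratios. The deposited medians were 15.3 and 15.6 in CL1-5 with AK4 shRNA and non-silencing shRNA, against 6.23 and 6.07 in CL1-0 with AK4 vector and control vector. The 3′ to 5′ signal ratio of beta-actin, which grows as RNA is degraded, was 1.61 and 1.34 in CL1-5 against 6.54 and 6.04 in CL1-0. That of GAPDH was 1.07 and 1.04 against 1.54 and 1.25. Their part in the line differences was not tested. Without rescaling of the deposited values, 17 members were higher by 2-fold or more and 2 lower, against 43.1% and 4.60% of all genes. The median of all genes then moved to 0.83. Under that setting CS (0.40), DLST (0.44), SUCLG1 (0.85), MDH2 (0.72) and IDH3B (0.83) lay above 0, so their direction depends on the scaling, and GOT1 was at -0.98. Median scaling put OGDH (-0.16), GLUD1 (-0.01) and SLC25A1 (-0.10) below 0, ACO1 at 0.93 and IDH3A at 0.86. Quantile normalization put MDH2, SUCLG1 and IDH3B above 0, as loess did, and OGDH at -0.01. Averaging all probe sets of a gene left 3 members lower, against 8.54% of all genes, with ACO1 at 0.57 and IDH3A at 0.81.

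Of 20 measured pathway neighbours, genes of the same routes outside the list, 1 was higher by 2-fold or more in the control pair and 3 lower, with a median of -0.20. Over all genes, 17.1% were higher and 14.2% lower, with a median of 0.13, so the lower count is near the background share. DLAT, the acetyltransferase core of pyruvate dehydrogenase, was higher at 2.14. The succinate dehydrogenase subunit SDHC was lower at -1.37, ATP citrate lyase (ACLY) at -1.16 and the oxodicarboxylate carrier SLC25A21 at -1.21. SLC25A21 was dim, between 11.6 and 30.8 on the 4 arrays.

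In CL1-0, most cycle and anaplerosis genes were brighter on the array labelled AK4 vector than on the control vector array, by less than 2-fold. Of 28 measured genes, 21 had a ratio above 0, 0 were higher by 2-fold or more and 1, GOT1, was lower. Over all 14681 measured genes, 3.22% were higher by that much, 1.16% lower and 56.1% above 0. The median log2 ratio of the 28 genes was 0.30, against 0.05 for all genes, and it lay between 0.21 and 0.35 under the 8 alternative settings. Probe sets of 1 gene scattered around their mean ratio with a pooled SD of 0.41, a scatter within arrays that is no replicate error.

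**Figure D3:**
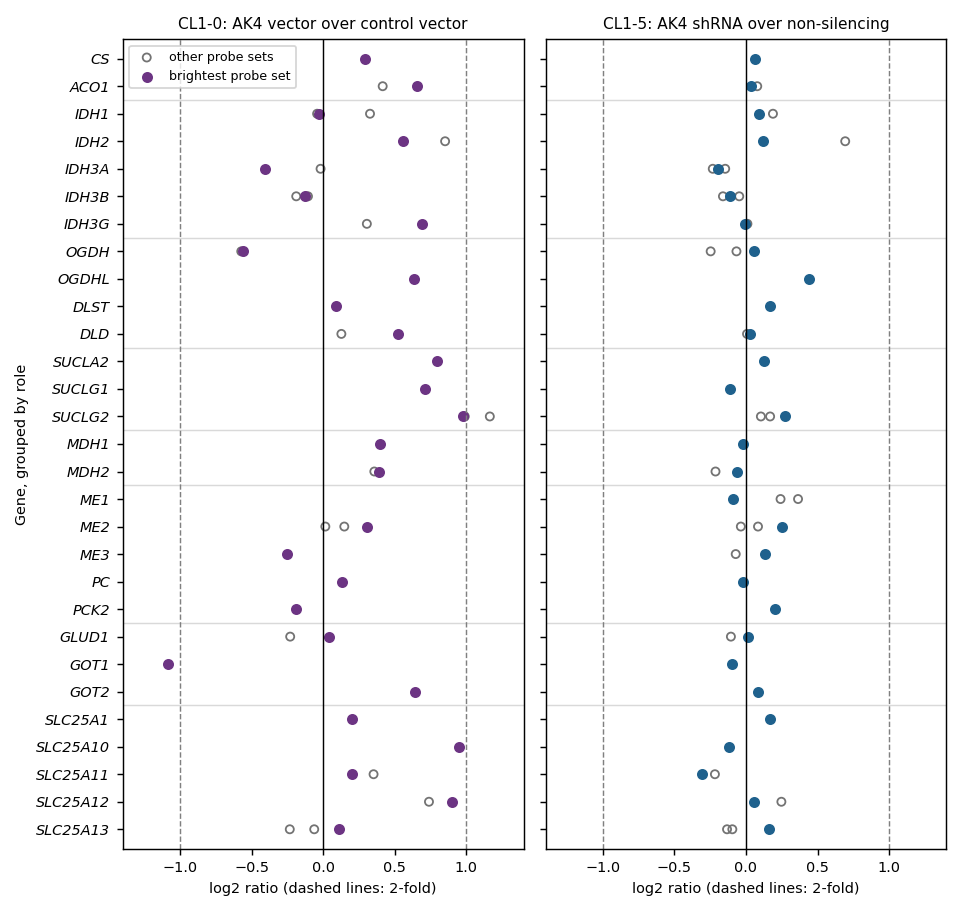
Log2 ratio of every measured probe set of the 29 genes for AK4 vector over control vector in CL1-0 (left) and AK4 shRNA over non-silencing shRNA in CL1-5 (right), with 2-fold dashed. The succinate-CoA ligase genes lie well to the right of 0 in CL1-0, GOT1 lies beyond 2-fold on the left, and in CL1-5 all points lie within 2-fold.

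Succinate-CoA ligase, which makes ATP or GTP directly in the cycle, had all of its subunits at the upper end. SUCLG2 had a signal of 404 with AK4 vector and 205 with control vector, a log2 ratio of 0.98. Its other bright probe sets gave 0.99 and 1.16, so 1 of its probe sets passed 2-fold. SUCLA2 read 194 with AK4 vector and 112 with control vector, or 0.80. SUCLG2 and SUCLA2 were read only by _x_at and _s_at probe sets, so neither had a ratio when those were left out. SUCLG1 read 1078 with AK4 vector and 658 with control vector, or 0.71, and 0.36 when averaged with a second probe set that lay under the floor. Ratios as high or higher were found in 3.46%, 6.55% and 8.60% of all genes for SUCLG2, SUCLA2 and SUCLG1.

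All 5 carriers had ratios above 0. SLC25A10 read 36.1 with AK4 vector and 18.8 with control vector, a log2 ratio of 0.95. SLC25A12 read 110 with AK4 vector and 59.1 with control vector, or 0.90, with 0.74 at its second probe set. SLC25A1 and SLC25A11 were at 0.20 each, and SLC25A13 was at 0.11, with its other probe sets below 0 and their average at -0.06.

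GOT1 was the lowest member, with a signal of 482 with AK4 vector and 1021 with control vector. That is a 2.12-fold lower signal and a log2 ratio of -1.08, and ratios as low or lower were found in 0.892% of all genes. Under quantile normalization it was at -0.97, which ends the call. Mitochondrial GOT2 read 571 with AK4 vector and 367 with control vector, or 0.64, so the log2 ratio of GOT1 minus that of GOT2 was -1.72. GOT1 is read by 1 probe set, and no second one tests its value.

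Within the dehydrogenase steps the ratios lay on both sides of 0. Those of IDH3A, IDH3B and IDH1 were smaller in size than the pooled SD between probe sets, 0.41. IDH3G was at 0.69, with 0.31 at its second probe set, and IDH2 at 0.56, with 0.85 at a dimmer one. IDH3A was at -0.41, but at -0.02 at its second measured probe set. IDH3B was at -0.12, with -0.19 and -0.11 at its other probe sets. IDH1 was at -0.03, with -0.04 and 0.33 at its other probe sets. OGDH was at -0.56, with -0.57 at its second measured probe set, while OGDHL was at 0.63, DLD at 0.52 with 0.13 at its dimmer probe set, and DLST at 0.09. OGDHL was dim, at 25.8 with AK4 vector and 16.6 with control vector. ACO1 was at 0.65, MDH1 at 0.40, MDH2 at 0.39 and CS at 0.30.

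The enzymes of the pyruvate node, which differed widely between the lines, had log2 ratios from -0.25 to 0.30 within CL1-0. PC was at 0.13, PCK2 at -0.19, ME2 at 0.30 and ME3 at -0.25, and ME1 was at the floor on both arrays. GLUD1 was at 0.04, and at -0.05 with median scaling, while its other probe set was at -0.23. The integrated stress response targets had a median of -0.02 over 12 genes, with 2 higher by 2-fold or more and 1 lower. NRF2 targets had a median of -0.26 over 8 genes, with 2 lower by 2-fold or more.

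Pathway neighbours lay on the same side as the list, with 16 of 20 above 0, none past 2-fold in either direction and a median of 0.37. Their ratios ran from -0.98 to 0.86. For beta-actin the 3′ to 5′ ratio was 6.54 with AK4 vector and 6.04 with control vector, and that of GAPDH 1.54 and 1.25.

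In CL1-5, no cycle or anaplerosis gene differed by 2-fold between AK4 shRNA and non-silencing shRNA. Of 29 measured genes, 0 were higher by 2-fold or more and 0 lower, against 0.0914% higher and 0.0131% lower among all 15321 measured genes. The median log2 ratio was 0.05, against 0.00 for all genes, with 18 of 29 above 0 and a pooled SD between probe sets of 0.22. With so few genes past 2-fold anywhere, a count of 0 is near the background.

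The highest member was OGDHL, with signals of 44.0 with AK4 shRNA and 32.5 with non-silencing shRNA, a log2 ratio of 0.44. SUCLG2 followed with 409 and 340, or 0.27, and ME2 with 165 and 139, or 0.26. The other bright SUCLG2 probe sets were at 0.17 and 0.10, and the other ME2 probe sets at 0.08 and -0.04. A second, dim IDH2 probe set was at 0.69, with 34.3 with AK4 shRNA and 21.2 with non-silencing shRNA, while the brighter one was at 0.12. The lowest member was SLC25A11, with 202 with AK4 shRNA and 250 with non-silencing shRNA, or -0.31, and its second probe set was at -0.22. IDH3A was at -0.20 and SLC25A10 at -0.12. All other members lay between the values of IDH3A and ME2.

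Of the 20 pathway neighbours measured in CL1-5, 9 were above 0 and none passed 2-fold in either direction, with a median of -0.01 and a range from -0.32 to 0.23.

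**Figure D4:**
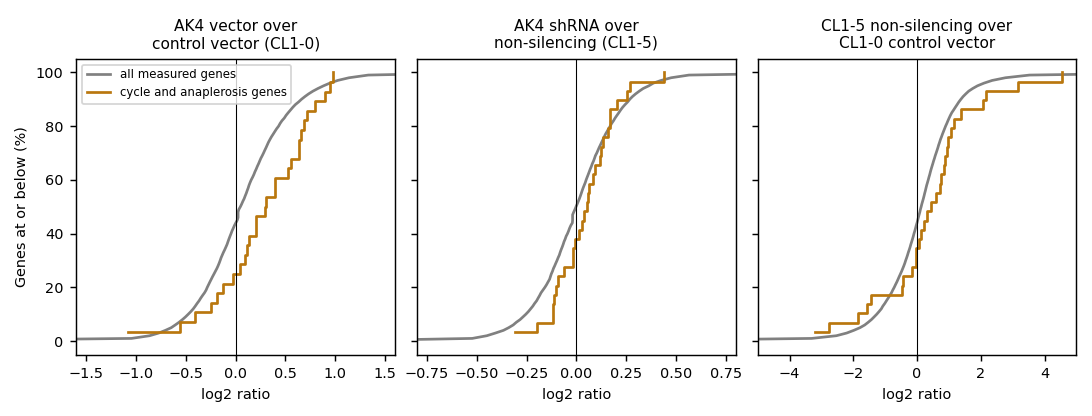
Cumulative share of genes at or below each log2 ratio in the 3 comparisons, for the cycle and anaplerosis genes (steps) and for all measured genes (grey), with a different horizontal range in each panel. In CL1-0 the steps lie to the right of the grey curve over most of the range, with medians of 0.30 and 0.05. In CL1-5 the medians are 0.05 and 0.00, and between the lines 0.45 and 0.13.

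The AK4 vector and AK4 shRNA comparisons share no array, so their signs can be set side by side. Of 28 genes with a ratio other than 0 in both, 7 were above 0 with AK4 vector and below 0 with AK4 shRNA (IDH3G, SUCLG1, MDH1, MDH2, PC, SLC25A10 and SLC25A11). That is 25% of them, against 25.7% of 13741 genes. The mirror pattern held for IDH1, OGDH, ME3 and PCK2, or 14.3% against 20.3%. Above 0 in both were 14 genes, or 50%, against 30.5% of all genes, and below 0 in both were 3, or 10.7%, against 23.5%. The largest opposite pair was SLC25A10, at 0.95 and -0.12. Signs of ratios near 0 depend on the scaling. Without rescaling, the AK4 shRNA ratio was 0 for PC, 0.01 for IDH3G and 0.00074 for MDH1, so these genes left the first pattern. Genes with equal deposited values on both arrays also take a sign from the scaling, which enters the shares of all genes.

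Probe sets of the same gene set a limit on single values. Where a member had more than 1 probe set above the floor on the arrays compared, all lay on the same side of 0 in 11 of 14 members in the vector comparison, and 10 of 14 did between the control arrays. In the pair of CL1-5 with AK4 shRNA over CL1-0 with AK4 vector only 7 of 15 did. In the shRNA comparison 9 of 16 did, and ME1, for example, was at -0.09 and 0.36. The widest spread within a gene was 1.55 on the log2 scale, for SLC25A13 in the second pair of the lines, and it was 1.46 between the control arrays.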

How the data were processed

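RNA of 4 cultures was hybridised to 1-colour Affymetrix arrays. The deposited values are linear intensities, 1 per probe set and array. MAS5 is named in the submitters' processing notes. Its version, scaling target and background correction, and the genome build, were not given in the sources used. Each array was scaled to a common trimmed mean (2% removed at each end) without the 62 control probe sets. The floor was the 40th percentile of all scaled values, applied before log2. Symbols came from the platform annotation (41097 probe sets with 1 symbol, 1801 with several, 11777 with none). Of those with 1 symbol, 99.9% were matched by gene identifier to RefSeq, whose symbol was then used. A gene was measured where at least 1 of the arrays compared lay above the floor. The groups came from the genotype labels, 1 array each, so no test was run. The members, lists, naming rule and settings were chosen with earlier results of these data known. The rule named every member, with signals mainly for those past 2-fold, at an extreme or read differently by their probe sets. The 8 alternatives changed scaling, floor or probe set. The procedure was tested on simulated data. Python 3.11.15, numpy 2.4.6, pandas 2.3.3 and statsmodels 0.14.6 were used.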

Additional observations from a re-analysis of the deposited data

How the results depend on the processing

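The 8 alternatives were no rescaling, scaling to the median of probe sets above the floor, quantile normalization, loess, a floor at the 60th percentile, no floor with 1 added, averaging of probe sets, and leaving out _x_at and _s_at probe sets. Between the control arrays, without rescaling, 17 members were at least 2-fold higher and 2 lower, and their median was 1.32. The median of all genes was then 0.83, against 0.13, and 43.1% of all genes were higher and 4.60% lower, against 17.1% and 14.2%. The median of the members was 0.23 with median scaling, 0.57 when probe sets were averaged and 0.15 without _x_at and _s_at probe sets. When probe sets were averaged 3 members were lower, against 8.54% of all genes. Against the median of all genes the members lay higher by 0.32, by 0.00 without _x_at and _s_at probe sets, 0.49 without rescaling, 0.53 with quantile normalization and 0.50 with loess. The count of members with lines at least 2-fold apart on all arrays was 14 without rescaling, against 8. The share of all genes was not computed under that setting, so the rise cannot be read as particular to the members. With quantile normalization no member was at least 2-fold lower with AK4 vector, against 1.12% of all genes. Loess gives no level per array, so the count on all arrays was not run with it. Elsewhere the count of higher members between the control arrays ran from 5 to 9, against 7, while 12.4% to 18.3% of all genes were higher. The median in the shRNA comparison was between 0.01 and 0.07, against 0.05. The pooled SD between probe sets was 0.41 in the vector comparison, 0.22 in the shRNA comparison and 0.85 between the control arrays. Of 661 recomputed ratios of single members, 620 moved by less than the SD of their comparison and 41 by more. A gene with 1 probe set cannot move when probe sets are averaged, so the count does not measure how stable the ratios are. Past 2-fold, 0 ratios turned sign, while several members under 2-fold did. The cause of these shifts was not tested. No paired analysis was possible because each group is 1 array. The floor limits ME1 in CL1-0 to a bound.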
